A study of Mus musculus with 6 samples.

Results

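Spectrins, ankyrins and adducins are the proteins of the submembrane skeleton, and 9 of their genes were read in the translating RNA of *Kiss1* cells of the medial amygdala (MeA): *Sptan1*, *Sptb*, *Sptbn1*, *Sptbn4*, *Ank1*, *Ank2*, *Ank3*, *Add1* and *Add2*. The members were taken by gene symbol from the table of log2 CPM (read counts scaled to library size, on a log2 scale), where all 9 were found, each as 1 of 13886 genes. The family was chosen by measured values of these libraries, its high mean levels among them, so the levels below are a description and carry no test. The immunoprecipitated RNA came from female mice of the genotype KissCre+/Rpl22HA+/+, in which Cre made under the *Kiss1* promoter adds an HA tag to the ribosomal protein RPL22, so that ribosomes of *Kiss1*-lineage cells can be pulled down with an antibody to HA. All mice were ovariectomized at 8 weeks of age, given estradiol (E2) for 4 days and then left without it for 7 days. The OVX group received no further hormone, and the E2 group received E2 for 5 more days. Each group had 3 libraries, and each library was 1 pool of MeA tissue from 4 mice, 12 mice in a group. Cells that expressed *Kiss1* at an earlier age and no longer do so keep the tagged ribosomes, a pull-down can also carry RNA of untagged cells, and pooling hides the spread between single mice.

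Spectrins are long rods that pair as an alpha and a beta chain and join end to end, forming with short actin filaments a lattice under the plasma membrane. Ankyrins tie the beta spectrins of this lattice to ion channels, transporters and adhesion molecules, and in axons the lattice repeats as evenly spaced rings along the shaft. Adducins cap the actin filaments and help spectrin bind to them. In neurons the giant ankyrin-G form and beta-IV spectrin build the axon initial segment and the nodes of Ranvier, where sodium channels are held.

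The genes lie on 9 different chromosomes. On GRCm38 the alpha spectrin gene *Sptan1* (ENSMUSG00000057738) is at chr2:29965560-30031451 on the + strand. The beta spectrin genes are *Sptbn1* (ENSMUSG00000020315) at chr11:30099395-30268175, *Sptb* (ENSMUSG00000021061) at chr12:76580488-76710547 and *Sptbn4* (ENSMUSG00000011751) at chr7:27356383-27447686, all on the − strand. Of the ankyrin genes, *Ank1* (ENSMUSG00000031543) is at chr8:22974844-23150497 on the + strand, *Ank2* (ENSMUSG00000032826) at chr3:126921612-127499350 on the − strand and *Ank3* (ENSMUSG00000069601) at chr10:69398773-70027438 on the + strand. The adducin genes *Add1* (ENSMUSG00000029106) at chr5:34573664-34632308 and *Add2* (ENSMUSG00000030000) at chr6:86028681-86124409 are on the + strand. These are large genes with long transcripts. The longest annotated transcript had 14305 nt in *Ank2*, between 8018 and 10394 nt in 7 other members and 4547 nt in *Add1*, against a median of 3516 nt over 13881 genes. *Ank3* had 47 annotated transcripts and *Sptb* 3, and the gene-level values used here do not separate them.

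Promoter sequences are shown for the 3 members with the highest level and for the adducin whose libraries varied least, because the comparison is one of a steroid hormone whose receptor binds DNA. RefSeq entries (GRCm38.p6) were matched for 7 of the 9 members, with 14 start sites among them, and *Ank1* and *Ank3* had none. Each line gives the 250 bases before a RefSeq start site, 5′ to 3′ on the strand of the gene. Capitals mark a GC box (GGGCGG, or CCGCCC on the other strand) or a single arm of the estrogen response element (GGTCA, or TGACC on the other strand), and the motifs were searched on both strands. *Sptbn1* has RefSeq starts that lie inside the gene as annotated in Ensembl, and both are shown. No window at its annotated 5′ end was available. *Ank2* had 4 RefSeq starts, also inside the annotated gene, and only the most upstream is shown.
Sptan1, chr2:29965310-29965559 (+ strand): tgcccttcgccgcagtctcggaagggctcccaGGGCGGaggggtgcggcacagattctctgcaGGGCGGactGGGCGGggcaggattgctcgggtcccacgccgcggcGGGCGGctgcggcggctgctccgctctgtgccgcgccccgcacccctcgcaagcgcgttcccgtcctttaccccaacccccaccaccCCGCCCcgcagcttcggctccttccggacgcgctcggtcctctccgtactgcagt
Sptbn1, chr11:30219773-30220022 (- strand): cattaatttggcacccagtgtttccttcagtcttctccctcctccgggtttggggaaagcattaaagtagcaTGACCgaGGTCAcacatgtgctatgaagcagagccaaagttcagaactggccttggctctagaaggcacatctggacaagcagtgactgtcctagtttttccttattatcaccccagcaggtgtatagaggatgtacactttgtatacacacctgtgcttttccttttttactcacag
Sptbn1, chr11:30198258-30198507 (- strand): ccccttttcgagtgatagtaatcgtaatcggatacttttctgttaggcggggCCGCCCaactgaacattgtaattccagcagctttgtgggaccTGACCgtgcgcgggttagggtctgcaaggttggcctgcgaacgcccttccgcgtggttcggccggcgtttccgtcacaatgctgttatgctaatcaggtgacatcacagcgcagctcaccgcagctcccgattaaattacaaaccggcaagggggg
Ank2, chr3:127499116-127499365 (- strand): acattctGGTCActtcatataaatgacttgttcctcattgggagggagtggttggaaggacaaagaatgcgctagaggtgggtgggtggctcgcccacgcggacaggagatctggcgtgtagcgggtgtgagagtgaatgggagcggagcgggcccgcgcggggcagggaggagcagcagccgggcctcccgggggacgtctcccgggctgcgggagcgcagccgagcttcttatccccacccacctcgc
Add1, chr5:34573414-34573663 (+ strand): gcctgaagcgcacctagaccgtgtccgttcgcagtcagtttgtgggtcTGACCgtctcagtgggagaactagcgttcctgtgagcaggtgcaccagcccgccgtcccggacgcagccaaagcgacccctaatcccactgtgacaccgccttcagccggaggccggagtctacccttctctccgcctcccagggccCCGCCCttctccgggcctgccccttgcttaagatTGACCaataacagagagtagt

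The window of *Sptan1* held 5 GC boxes in 73.6% GC and 31 CG dinucleotides, whereas the median over the 32851 windows of all genes was 52.4% GC and 6 CG dinucleotides. The more upstream of the 2 *Sptbn1* windows had 2 arms, no GC box, 46% GC and 2 CG dinucleotides. Whether this window inside the gene acts as a promoter was not tested. The other *Sptbn1* window had 1 GC box, 1 arm and 20 CG dinucleotides. The printed *Ank2* window had 1 arm and no GC box, and that of *Add1* had 2 arms and 1 GC box. A GC box was found in 9 of the 14 windows of members and in 32.7% of all windows. An arm was found in 6 of the 14, and in 35.2% of all windows. The full palindrome GGTCANNNTGACC, which contains both arms, was in 0 of the 14 windows and in 0.0639% of all windows (21 windows). These are matches of letters in a short window and say nothing of binding by a factor, there or elsewhere.

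Spectrins held the top of the table. By mean log2 CPM over the 6 libraries, *Sptbn1* (beta-II spectrin, the general beta chain of brain) ranked 1 of 13886 genes at 12.24, *Sptan1* (alpha-II spectrin, its partner) ranked 2 at 11.98 and *Ank2* (ankyrin-B, which spans the axon shaft and the cell body) ranked 8 at 11.35. *Ank3* (ankyrin-G), *Sptb* (beta-I spectrin, the red-cell form that neurons also use), *Sptbn4* (beta-IV spectrin), *Add1* (alpha-adducin) and *Add2* (beta-adducin) ranked 164, 190, 258, 296 and 434. *Ank1* (ankyrin-R, the ankyrin of the red cell) was far below them at rank 5231 with 5.42, against a median of 4.76 over all genes. The 9 members together held 1.57%, 1.75% and 1.35% of the summed CPM in OVX replicates 1, 2 and 3 and 1.16%, 1.21% and 1.57% in E2 replicates 1, 2 and 3. *Sptbn1* and *Sptan1* alone held between 0.711% and 1.1% of it.

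Long transcripts give more fragments, so levels were compared between genes as CPM per kilobase of the longest annotated transcript. On this scale *Sptbn1* had 597, 665 and 509 in OVX and 409, 449 and 609 in E2 replicates 1, 2 and 3, with a mean of 540 ± 100 (SD, n = 6) and rank 32 of 13881 genes. *Sptan1* had 570, 617 and 480 in OVX and 409, 433 and 541 in E2 libraries, a mean of 508 ± 81.3 and rank 42. The alpha and the main beta chain overlapped across libraries and were not separated by their spread. *Ank2* followed at 186 ± 34.5 and *Add1* at 102 ± 4.66 CPM per kilobase, ranks 249 and 517, and each of these had a range over the 6 libraries that did not overlap with that of the member above or below it. *Ank3* (70.2 ± 10.3), *Sptb* (60.8 ± 11.5) and *Sptbn4* (59.7 ± 9.8) came next, and the ranges of neighbours in this group overlapped. *Add2* had 43.8 ± 2.47 and *Ank1* 5.12 ± 0.29 CPM per kilobase, the latter below the median of 7.84 over all genes. Some places depend on the length used. Per kilobase of all annotated exons, *Sptan1* (305) came before *Sptbn1* (281), and *Ank3* fell to the eighth place with 20.1, where the exons of its many transcripts add up to 34838 nt. Per kilobase of coding sequence *Add2* came to the fifth place with 165.

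**Figure D1:**
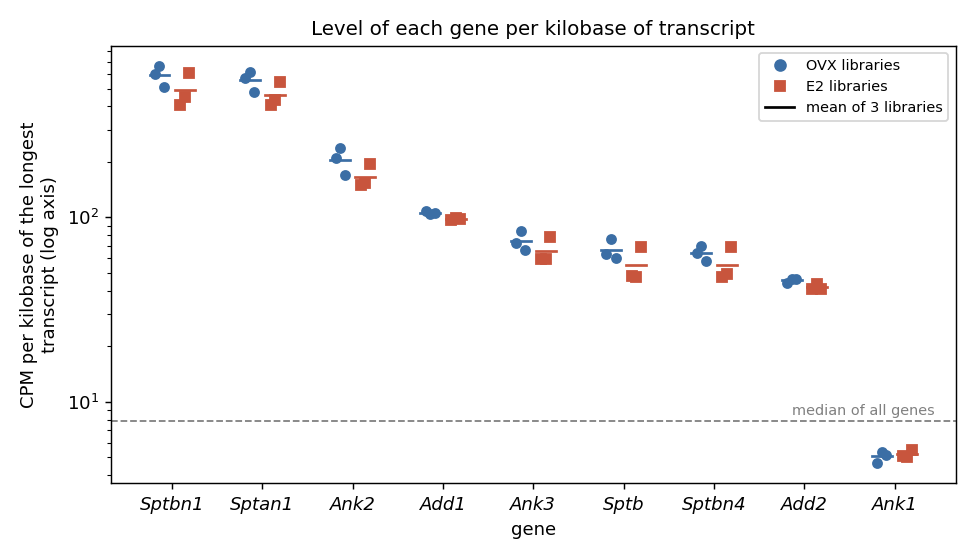
Level of the 9 members in CPM per kilobase of the longest annotated transcript (log axis), 1 point per library for the 3 OVX and 3 E2 libraries. *Sptbn1* (409 to 665) and *Sptan1* (409 to 617) overlap, *Ank1* lies between 4.63 and 5.47, and the mean level over all genes has its median at 7.84.

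Within a library, the ratios between spectrins were steadier than their levels. *Sptan1* to *Sptbn1* on the log2 CPM scale was -0.25, -0.29 and -0.27 in OVX and -0.18, -0.24 and -0.35 in E2 replicates 1, 2 and 3, a range of 0.17, whereas each gene alone ranged over 0.59 and 0.70. Per kilobase of longest transcript the alpha chain stood at 0.945 times the beta-II chain. The order depended on the length used. The beta-II chain stood at 0.918 times the alpha chain per kilobase of all exons and at 1.27 times per kilobase of coding sequence. Protein was not measured. The ratio of *Sptbn4* to *Sptbn1* ranged over 0.13 (from -3.30 to -3.17) and that of *Sptb* to *Sptbn1* over 0.15 (from -3.05 to -2.90). Per kilobase, *Sptbn1* was 9.01-fold above *Sptbn4* and 8.89-fold above *Sptb*, but 5.13-fold and 5.41-fold when the length of all annotated exons was used. The ratio of *Sptb* to *Sptbn4* ranged over 0.17, so each pair of these beta spectrins kept its proportion within 0.17 log2 units over the 6 libraries. The adducins, which work as a complex of alpha and beta chains in neurons, also kept their proportion, with *Add2* to *Add1* between -0.44 and -0.33 and *Add1* 2.34-fold above *Add2* per kilobase of longest transcript, 1.54-fold per kilobase of all exons and 1.28-fold per kilobase of coding sequence.

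The ankyrins kept their proportions less well. *Ank3* to *Ank2* was -2.05, -2.01 and -1.87 in OVX and -1.86, -1.88 and -1.83 in E2 libraries, means of -1.98 ± 0.09 and -1.86 ± 0.03. *Ank1* to *Ank2* was -6.27, -6.25 and -5.81 in OVX and -5.65, -5.70 and -5.93 in E2 libraries, a range of 0.62. For both ratios 2 OVX libraries were the lowest, but the groups overlapped. Per kilobase, *Ank2* was 2.63-fold above *Ank3* and 35.8-fold above *Ank1*, or 3.76-fold and 23.6-fold per kilobase of all exons.

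The question of the design was whether E2 changes these genes. With E2, no member changed past the threshold: 0 of 9 members had an adjusted p under 0.05 (limma, Benjamini-Hochberg over 13886 genes), where 40 genes did, 0.288% of those tested, 32 of them higher and 8 lower. At an unadjusted p under 0.05 there were 6 of 9 members, all with lower values with E2, and 8.56% of all genes. This count of members depended on the processing and ran from 0 to 6 under the alternatives given at the end. The difference E2 minus OVX was negative in 8 of 9 members with a median of -0.23 log2 units, and the median over all genes was 0.00. These differences are not independent of each other, since 6 of the members shared a pattern over the libraries that is described below. In such bulk samples fewer cells of a type and less RNA per cell cannot be told apart. The p-values rest on the spread between pools, moderated by a trend of variance with mean over all genes.

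*Sptan1* had log2 CPM of 12.16, 12.27 and 11.91 in OVX replicates 1, 2 and 3 and 11.68, 11.76 and 12.08 in E2 replicates 1, 2 and 3. E2 replicate 3 lay above the lowest OVX library, so the groups overlapped. The means were 12.11 ± 0.19 and 11.84 ± 0.21 (SD, n = 3 each), and the difference was -0.27 (SE 0.11, 95% CI -0.50 to -0.04), 17.2% lower, with an adjusted p of 0.482 (limma, Benjamini-Hochberg; unadjusted p = 0.0238).

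*Sptbn1* read 12.41, 12.56 and 12.18 in OVX and 11.86, 12 and 12.44 in E2 libraries, a difference of -0.28 (SE 0.13, 95% CI -0.56 to -0.01) with an adjusted p of 0.563 (limma). Here E2 replicate 3 was the second highest of the 6 libraries. *Sptb* was similar, with 9.36, 9.63 and 9.28 in OVX, 8.96, 8.95 and 9.49 in E2 libraries and a difference of -0.29 (SE 0.12, adjusted p = 0.532, limma). *Sptbn4*, the beta chain of the axon initial segment, had 9.14, 9.27 and 8.98 in OVX and 8.69, 8.76 and 9.23 in E2 libraries, a difference of -0.23 (SE 0.11, 95% CI -0.48 to 0.01, adjusted p = 0.605, limma). In all 3 beta spectrins E2 replicates 1 and 2 were the lowest and E2 replicate 3 sat among the OVX libraries.

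*Ank2* had the largest difference among members. It read 11.55, 11.73 and 11.24 in OVX and 11.06, 11.10 and 11.44 in E2 libraries, with means of 11.51 ± 0.25 and 11.20 ± 0.21, a difference of -0.30 (SE 0.12, 95% CI -0.55 to -0.05), 19% lower, and an adjusted p of 0.454 (limma). The groups overlapped again through E2 replicate 3 and OVX replicate 3. *Ank3* had 9.50, 9.72 and 9.37 in OVX and 9.20, 9.22 and 9.62 in E2 libraries, a difference of -0.18 (SE 0.10, 95% CI -0.41 to 0.04, adjusted p = 0.695, limma). *Ank1* stood apart from the other ankyrins, with 5.28, 5.49 and 5.43 in OVX, 5.41, 5.40 and 5.51 in E2 libraries and a difference of 0.04 (SE 0.08, 95% CI -0.14 to 0.22, adjusted p = 0.943, limma). Of its exonic bases, 6.37% (862 nt) are shared with an antisense gene, and reads without strand cannot be split between them. The shares were 3.94% in *Sptbn4*, 3.51% in *Add2* and under 1% in the other members.

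The adducins had small differences with little spread. *Add1* read 8.94, 8.90 and 8.91 in OVX and 8.79, 8.81 and 8.81 in E2 libraries, and *Add2* 8.50, 8.57 and 8.57 in OVX and 8.39, 8.48 and 8.39 in E2 libraries. In both genes all E2 libraries lay below all OVX libraries, which held for 2 of 9 members and for 6.82% of all genes. The differences were -0.12 (SE 0.05, 95% CI -0.22 to -0.01, adjusted p = 0.537, limma) and -0.13 (SE 0.05, 95% CI -0.24 to -0.01, adjusted p = 0.529, limma), or 7.76% and 8.51% lower. So neither passed the threshold although their groups did not overlap.

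**Figure D2:**
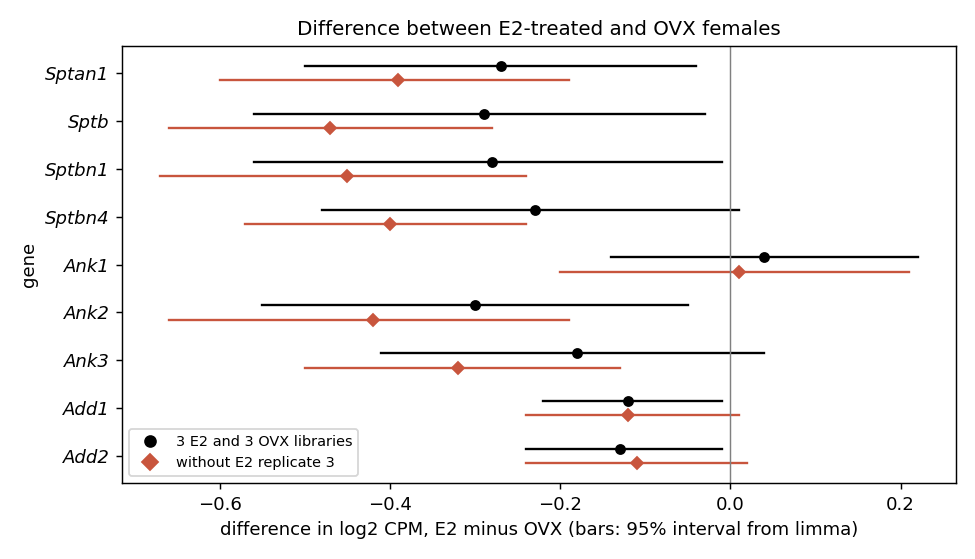
Difference E2 minus OVX of each member in log2 units with its 95% confidence interval (limma), for all 6 libraries and without E2 replicate 3. With all libraries the values run from -0.30 for *Ank2* to 0.04 for *Ank1*; without E2 replicate 3 they reach -0.47 in *Sptb*.

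The size of the differences depended on single libraries, in both directions. The median of the members was -0.13 without E2 replicate 1 and -0.16 without E2 replicate 2 or OVX replicate 2. The number of members with an unadjusted p under 0.05 (limma) was 6 with all libraries. It was 0 without E2 replicate 1 or OVX replicate 2, and 2 without E2 replicate 2 or OVX replicate 1. Without E2 replicate 3 or OVX replicate 3 it stayed at 6. Of all 13886 genes, 838, 1355, 920, 886, 1229 and 1260 passed in these fits, in the order given. Without E2 replicate 3, 66 genes were called, 30 of them lower with E2 (0.216% of those tested), and 2 of the 9 members were among these: *Sptb* at -0.47 (SE 0.09, adjusted p = 0.0337, limma) and *Sptbn4* at -0.40 (SE 0.08, adjusted p = 0.0396, limma). *Sptbn1* had -0.45 (adjusted p = 0.0717), *Sptan1* -0.39 (adjusted p = 0.106), *Ank2* -0.42 (adjusted p = 0.136) and *Ank3* -0.32 (adjusted p = 0.167), all by limma. The median of the members was then -0.39, and 8 of 9 had E2 libraries all below the OVX libraries, which with 2 libraries against 3 held for 12.8% of all genes. The adducins and *Ank1* hardly moved, at -0.12, -0.11 and 0.01. Without OVX replicate 3, 4 of 9 members had all E2 libraries below all OVX libraries, again against 12.8% of all genes, 0 were called, and *Ank2* was at -0.44 (adjusted p = 0.179, limma). No source used here gives a reason to leave out any of these libraries.

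The members thus fell into 6 genes that varied widely between libraries and 3 that did not. The 4 spectrins, *Ank2* and *Ank3* had ranges of 0.52 to 0.70 log2 units over the 6 libraries, 1.43-fold to 1.63-fold. Of the 729 genes with a mean log2 CPM of 8 or more, whose median range was 0.19, between 95.3% and 97.9% varied less. *Add1* (range 0.15) and *Add2* (0.19) varied more than 30.9% and 48.1% of these genes, and *Ank1* (0.24) more than 35.5% of 2537 genes with a mean between 5 and 6, whose median range was 0.27. In all 6 wide-ranging genes OVX replicates 1 and 2 and E2 replicate 3 were the 3 highest libraries, a set that is the 3 highest in 6.78% of all genes. OVX replicate 2 was the highest library in 7 of 9 members, and E2 replicate 3 was above OVX replicate 3 in 7 of 9, against 49.7% of all genes. What these libraries share was not given in the sources used here.

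**Figure D3:**
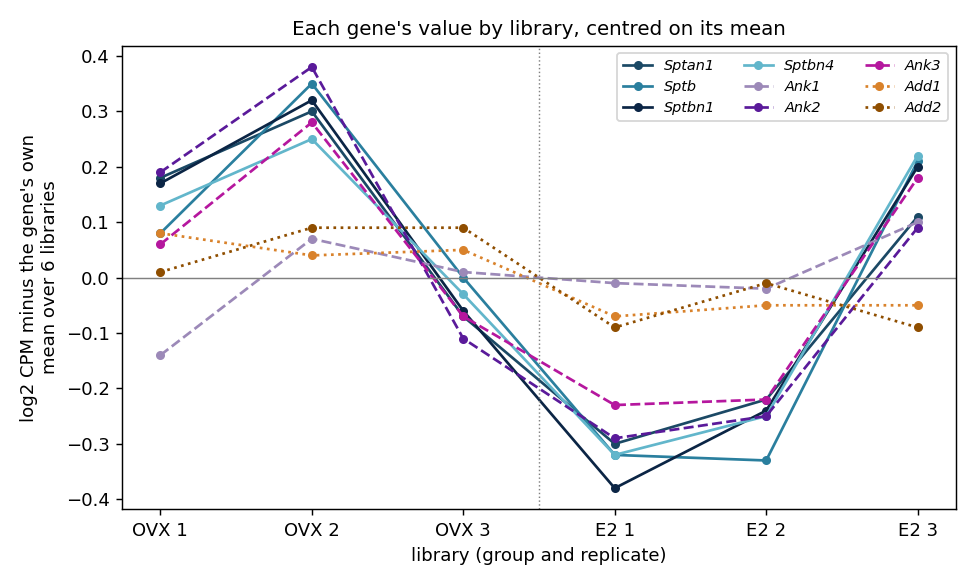
Deviation of log2 CPM from the mean of 6 libraries for each member in each library (lines only join the points of a gene). The spectrins, *Ank2* and *Ank3* are high in OVX replicates 1 and 2 and E2 replicate 3, and reach 0.38 and -0.38, while *Add1*, *Add2* and *Ank1* stay between -0.14 and 0.10.

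Transcript length moved with the result. Among the 6328 genes with a mean log2 CPM of at least 5, the difference E2 minus OVX had a Spearman correlation with transcript length of -0.16 across genes, which share the same 6 libraries and are not independent. The median difference went from 0.01 in the shortest class (216 to 2699 nt) to -0.04 in the longest (9563 nt and over). Of the 602 genes with a transcript of at least 8000 nt, the median was -0.03, or -0.06 without E2 replicate 3, and 6.98% had a difference of -0.2 or lower. Among the members, 8 of 9 had transcripts of that length and 5 of 9 had such a difference. In another fit, a smooth curve of deviation from the gene's mean against transcript length was removed within each library. The median of the members was then -0.22 and their smallest adjusted p was 0.391 (limma). The part of length in the library pattern was not tested further.

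**Figure D4:**
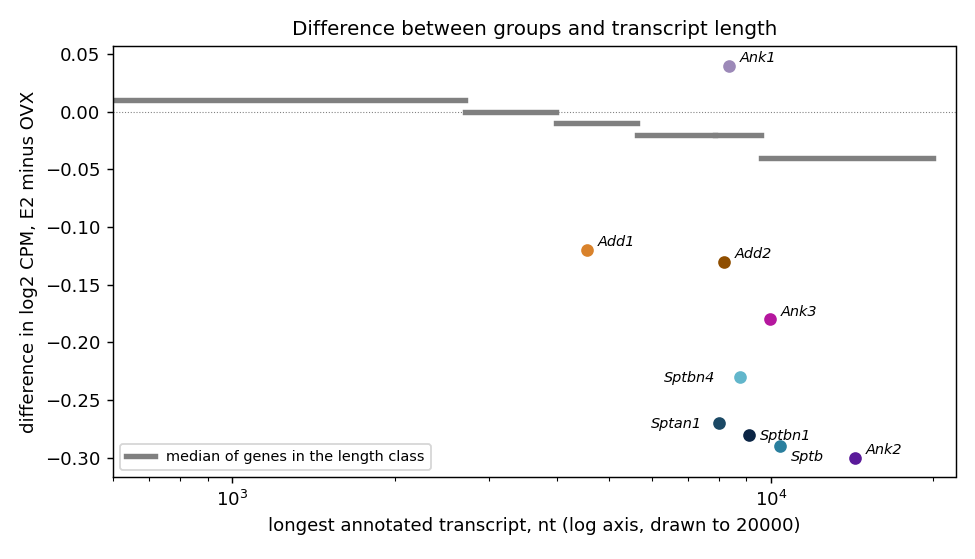
Difference E2 minus OVX (log2 units) against length of the longest transcript (nt, log axis) for genes with a mean log2 CPM of at least 5, with class medians and the 9 members marked. Class medians run from 0.01 to -0.04, and the spectrins and *Ank2* lie between -0.23 and -0.30.

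Other proteins of the skeleton were read as lists. The actin junction, where spectrin meets short actin filaments, had 0 of 17 genes called, 10 with a positive and 7 with a negative difference and a median of 0.02. Its extremes were *Tpm3*, a tropomyosin, at -0.22 (adjusted p = 0.279, limma) and *Capza1*, a capping protein subunit, at 0.24 (adjusted p = 0.422). Membrane proteins that ankyrins hold had 0 of 17 called, but 15 were negative, with a median of -0.07, and 5 of 17 had all E2 libraries below all OVX libraries, against 6.82% of all genes. Over all genes 6797 of 13886 differences were negative. Among them were *Nrcam* (-0.17), an adhesion molecule of nodes, *Scn2a* (-0.09) and *Scn8a* (-0.22, adjusted p = 0.263), subunits of voltage-gated sodium channels, and *Dag1* (-0.15), dystroglycan. At the other end of the list was *Atp1b1*, a sodium pump subunit, at 0.04 (adjusted p = 0.906). Partners at the axon initial segment and node had 0 of 12 called and a median of 0.01, between *Trim46*, which bundles microtubules there, at -0.07 and *Cntnap2*, a juxtaparanodal protein, at 0.18 (adjusted p = 0.422).

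Giant scaffold proteins, many built of spectrin repeats, came closest to the members. Of 13 genes 0 were called, 10 were negative and the median was -0.17, with *Plec* (plectin, a linker of cytoskeletal filaments) at -0.30 (adjusted p = 0.499, limma). Their median deviations were 0.14, 0.20 and -0.07 in OVX and -0.15, -0.21 and 0.10 in E2 replicates 1, 2 and 3, where those of the members were 0.08, 0.28 and -0.03 and -0.29, -0.22 and 0.11. Like the spectrins, these scaffolds were high in OVX replicates 1 and 2 and E2 replicate 3. Without E2 replicate 3, *Plec* was at -0.47 with an adjusted p of 0.0396 (limma). Proteases that cut and kinases that act on the skeleton had 0 of 11 called, a median of 0.06, and a difference of 0.24 for *Rock1*, a kinase that acts on the actin cytoskeleton (adjusted p = 0.621, limma).

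**Figure D5:**
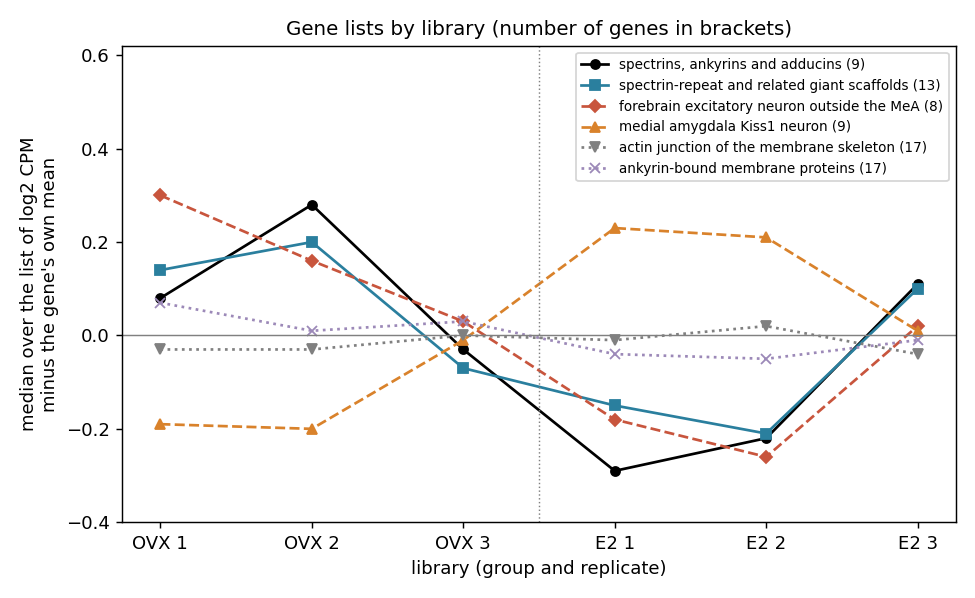
Median deviation of log2 CPM from the mean of 6 libraries for the members, 3 lists of skeleton genes and 2 lists of neuron markers, in each library (lines only join points). The giant scaffolds trace the members from 0.20 in OVX replicate 2 to -0.21 in E2 replicate 2, whereas the actin junction stays between -0.04 and 0.02.

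Over all genes with a mean log2 CPM of at least 5, those whose profile over the 6 libraries was most like the mean profile of the members included *Plec* (Pearson r = 0.998), *Sec16a* (0.997), a scaffold of endoplasmic reticulum exit sites, *Dlgap3* (0.996), a postsynaptic scaffold, and *Rnf44* (0.994), a ring finger protein, of 6319 genes compared. With 6 libraries and so many genes, high values are easily reached. *Plec* has a longest transcript of 15455 nt and *Sec16a* of 8797 nt, and *Dlgap3* and *Rnf44* have 4207 and 4292 nt. *Dlgap3* read 8.30, 8.42 and 8.23 in OVX and 8.04, 8.06 and 8.33 in E2 libraries, a difference of -0.17 (adjusted p = 0.572, limma). *Sec16a* and *Rnf44* differed by -0.09 and -0.08.

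Scaled library sizes were 28.1M to 34.2M. The cell type was checked by marker lists. Of 9 genes of MeA *Kiss1* neurons, *Kiss1* (ENSMUSG00000115958, 1 of its 2 overlapping gene models) rose by 1.91 with E2 (adjusted p = 0.00475, limma) and *Esr1*, an estrogen receptor, fell by 0.70 (adjusted p = 0.0189, limma). All 9 were listed and their summed level was 1056 to 1186 CPM in OVX and 1151 to 1357 CPM in E2 libraries. Their median deviations were -0.19, -0.20 and -0.01 in OVX and 0.23, 0.21 and 0.01 in E2 replicates 1, 2 and 3, so that replicate 3 of each group lay near the mean. Their part in the members' values was not tested. The 8 genes of all neurons had a median difference of -0.01 and summed to 4776 to 4976 and 4747 to 5099 CPM in OVX and E2 libraries.

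Genes listed as markers of excitatory neurons elsewhere in the forebrain differed in the same direction as the members. All 8 were listed and negative, with a median of -0.30, among them *Tbr1*, a cortical transcription factor, at -0.05, and 0 were called. Their summed level was 4255 to 4697 CPM in OVX and 3533 to 4284 in E2 libraries. The highest of them, *Camk2a*, had a mean log2 CPM of 11.52 and weighs most in this sum. Not all of these genes are specific to such neurons, and the authors list *Slc17a7* (as *Vglut1*) among transcripts of the *Kiss1* cells. The median deviations of the 8 genes were 0.30, 0.16 and 0.03 in OVX and -0.18, -0.26 and 0.02 in E2 replicates 1, 2 and 3. Both these markers and the members were lowest in E2 replicates 1 and 2 by these medians, but in E2 replicate 3 the markers were near their mean (0.02) and the members above it (0.11). Whether they bear on the members' values was not tested.

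Astrocyte and oligodendrocyte markers differed mostly in the other direction, with no call. All 7 astrocyte genes were positive with a median of 0.18 (summed level 860 to 1062 CPM in OVX and 1012 to 1212 in E2 libraries), as were 7 of 8 oligodendrocyte genes with 0.13 (1600 to 2239 and 1757 to 2458 CPM). Microglia (7 genes, -0.07, 112 to 145 and 110 to 129 CPM), endothelial and mural cells (7 genes, 0.02, 118 to 223 and 138 to 189 CPM) and striatal neurons (6 genes, -0.03, 133 to 188 and 138 to 170 CPM) had medians near 0 and 0 calls. *Ank1*, *Sptb*, *Add1* and *Add2* are also genes of the red-cell skeleton. Of 9 erythroid markers 4 were listed, and the defining genes *Slc4a1* and *Epb42* were not among them. The 4 were higher with E2, with a median of 1.06 and a summed level of 121 to 228 CPM in OVX and 280 to 447 in E2 libraries, and 2 of them, *Hba-a1* (1.01, adjusted p = 0.0124, limma) and *Hba-a2* (1.04, adjusted p = 0.0469, limma), were called. The alpha-globin genes are near-identical copies, between which reads can be split. Of these red-cell skeleton genes, the differences were -0.29 for *Sptb*, -0.12 for *Add1*, -0.13 for *Add2* and 0.04 for *Ank1*. Their relation to the erythroid markers was not tested.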

How the data were processed

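RNA pulled down with tagged ribosomes was sequenced from 3 OVX and 3 E2 pools. The authors trimmed reads (Trimmomatic 0.38), aligned them to GRCm38 (STAR 2.6.0a), estimated counts with RSEM, kept protein-coding genes with a mean CPM over a threshold and deposited log2 CPM made with TMM scaling and voom, which adds 0.5 to each count. The authors' second deposited table holds their own log2 fold changes, moderated statistics, p-values and adjusted p-values, and was not used.

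E2 was compared with OVX for all 13886 genes in limma 3.58.1 (R 4.3.3), using the deposited log2 CPM, a trend of variance with mean and no covariate besides treatment. Tests were 2-sided, p-values were adjusted across the whole table after Benjamini and Hochberg, and the threshold was 0.05. Prior degrees of freedom were 9.55, and the median SE of a difference was 0.11. The scaled library size was read from the lowest value of each library, taken as a count of 0, which 2 to 12 genes shared. The script was tested on simulated data. Transcript lengths, positions and shared exonic bases came from the GENCODE annotation of GRCm38 (13881 genes with a length). Promoter windows of 250 bases came from RefSeq.

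The members and all gene lists were chosen with earlier results of these data known. Genes named are the 9 members, the extremes and called genes of each list, and the 5 genes most like the members' mean profile, of which 4 are reported. Results for several genes named by these criteria are left out. *Nrcam*, *Scn2a* and *Dag1* were named after their values were seen. Pools with the same replicate number were not paired. Alternatives were a fit without trend, voom or quality weights, robust empirical Bayes, median centring, quantile normalization, filters on low values, log2 of CPM plus 1 or 0.1, a length curve, a replicate block, other lengths for levels and leaving out each library. The last was added for ratios and for counts of groups that do not overlap after seeing the data.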

Additional observations from a re-analysis of the deposited data

How the results depend on the processing

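The number of genes called was 40 and became 0 in a fit without the mean-variance trend (1017 at an unadjusted p under 0.05), where the cause was not tested. It ran from 20 to 66 when each library was left out in turn, and from 33 to 51 under the other alternatives. The number of members called was 0 under every alternative except without E2 replicate 3, so that leaving out each library gave 0 to 2. *Sptb* (-0.47) and *Sptbn4* (-0.40) passed the threshold there. The 6 members with an unadjusted p under 0.05 (limma) became 0 without the trend and 1 with quantile normalization. They became 2 with robust empirical Bayes and 2 with a replicate block. Of all genes, 1017, 1206, 1150 and 885 passed in these fits, in the order given. The other alternatives that kept all libraries gave 5 or 6 members. The median difference of the members stayed negative, from -0.39 to -0.11. Quantile normalization gave the latter and set *Sptbn1* and *Sptan1* to 0.00 by construction, since they hold the same top places in each library. *Ank1* changed sign to -0.02 without OVX replicate 1 (adjusted p = 0.989, limma), and ran from -0.02 to 0.09 as each library was left out. In the order of levels, 3 of 9 places were kept per kilobase of all exons. Members whose groups did not overlap numbered 2 to 8 when each library was left out. They numbered 8 without E2 replicate 3 and 4 without OVX replicate 3, where all E2 libraries lay below in 12.8% of all genes. In the other cases they numbered 2, as with all libraries, where that share was 6.82%.

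A replicate block gave 35 genes and 0 members. Deviations of pools with the same number did not go together (correlations across genes of -0.02, -0.12 and -0.08). It changed no call of a member. The members had means of 42.9 to 4916 CPM in libraries of 28.1M to 34.2M. The SE of their differences ran from 0.05 in *Add1* and *Add2* to 0.13 in *Sptbn1*, and the median SE over all genes was 0.11. These SEs combine the spread between 3 pools per group with a trend of variance over all genes (9.55 prior degrees of freedom). The SE of *Sptbn1* was 0.18 without the trend and 0.20 with robust empirical Bayes, and that of *Add1* was 0.06 and 0.05. In both fits the confidence intervals of *Sptan1*, *Sptb*, *Sptbn1* and *Ank2* included 0. That of *Sptbn1* with robust empirical Bayes was -0.83 to 0.26. The intervals of *Add1* and *Add2* included 0 without the trend but not with robust empirical Bayes. The part of depth in these SEs was not tested.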
